A study of Mus musculus with 82 samples.

Results

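The cytosolic ribosomal protein genes encode the proteins of the ribosomes that translate nuclear mRNA. They were taken by symbol as the protein-coding Rpl and Rps genes with Rpsa, Rplp0, Rplp1 and Rplp2. Pseudogenes and the ribosomal protein S6 kinases were left out. The rule gave 83 of the 48795 gene identifiers measured, 51 of the large subunit and 32 of the small subunit. This rule uses no measured value, but it was chosen with earlier results of these data known.

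The study measured RNA of mouse brain taken by laser capture, from uninjured tissue and after a stroke placed in white matter or cortex. The libraries hold RNA pulled down with ribosomes by immunoprecipitation (IP) or input RNA from the cleared lysate. The series calls the IP libraries astrocyte-enriched. Its labels name stroke zones by number and give no distances. In each region there were 5 IP and 5 input libraries of uninjured tissue, which the labels also call sham. Stroke tissue gave 3 IP and 3 input libraries of zones 1 to 3 combined, and 5 IP libraries of each of zones 1 to 5, for 82 libraries in 18 groups. The disease state was given as white matter stroke for the white matter zones and cortical stroke for the cortex zones. The method cited for the immunoprecipitation, that of Sanz and colleagues, pulls ribosomes down by an epitope tag on Rpl22, a protein of the large subunit. The sources used here do not give the cell type in which the tag was switched on, the strain, age or sex of the mice, or the time after stroke. The columns of the count table name the region by a letter, L or M, which was read as white matter and cortex. The sources used here tie no library to an animal, so the p-values measure only the spread between these libraries. The labels describe the input as total RNA and the IP as polyA RNA, so immunoprecipitation and this difference in RNA cannot be told apart.

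A ribosome holds a single copy of most of its proteins. The small subunit reads the mRNA, and the large subunit joins amino acids and passes the chain out through an exit tunnel. The acidic stalk proteins Rplp1 and Rplp2, anchored by Rplp0, draw in the elongation factors. The mRNAs of these proteins are short and abundant and begin with a run of pyrimidines (C and T), the terminal oligopyrimidine tract, through which growth signalling controls their translation as a group. Ribosomal protein genes also have many processed pseudogenes, so short reads from them can match several places in the genome.

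Most counts were of ribosomal RNA. The 6 rows mt-Rnr1, mt-Rnr2, Gm42418, CT010467.1, Gm23935 and Lars2, which are mitochondrial ribosomal RNA or overlap ribosomal repeats, held 67.3% to 94.3% of a library's counts. Outside them libraries held 389889 to 5708700 counts (median 2487440), and all CPM values here are counts per 1000000 of these. The 83 genes made up 0.103% to 0.529% of these counts, or 977 to 28040 counts per library. There were 5 shallow libraries, with under 1000000 such counts or under 10000 genes detected. They were replicate 1 of cortex zone 1 and, in white matter, replicates 1 and 5 of zone 1, replicate 1 of zone 3 and replicate 3 of zone 5. Summed CPM of 19 astrocyte markers lay at 4728 to 9005 in uninjured cortex IP and 1702 to 4088 in its input. In white matter they lay at 5705 to 9175 and 5617 to 6798. Markers of other cells were also present in the IP. In uninjured white matter 13 oligodendrocyte markers summed to 32697 to 54712 CPM in IP and 34909 to 38788 CPM in input, and 15 neuronal markers to 1123 to 2651 and 742 to 1291 CPM. In uninjured cortex the neuronal markers summed to 16262 to 21408 CPM in IP and 8698 to 25949 CPM in input. None of the markers was at 0 in every library of these groups. Olfactory and vomeronasal receptor genes, which serve smell, differed between the kinds of cortex library: they summed to 1280 to 7450 CPM in uninjured input, the highest in replicate 1, against 45.5 to 114 CPM in uninjured IP.

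The start of the coding sequence is shown for 4 genes that come up throughout: Rps15 and Rpl29, whose ratio of IP to input differed between the regions in the test, and Rpl39 and Rpl22l1, which lay lowest in cortex IP against input. The GC content of the coding sequence is 58.9% for Rps15, 57.3% for Rpl29, 45.1% for Rpl39 and 39.9% for Rpl22l1, and the median of the 83 genes is 52.7%. Each line gives the first 90 coding bases, from the start codon, of the transcript used, from the GENCODE annotation of GRCm38. G and C are in capitals, and they number 50, 46, 40 and 41 of the 90. Rps15 lies on the plus strand of chr10:80292453-80294114 in GRCm38. Rpl29 lies on the plus strand of chr9:106429454-106431568. Rpl39 lies on the minus strand of chrX:37082520-37085402. Rpl22l1 lies on the plus strand of chr3:28805436-28807424.
Rps15: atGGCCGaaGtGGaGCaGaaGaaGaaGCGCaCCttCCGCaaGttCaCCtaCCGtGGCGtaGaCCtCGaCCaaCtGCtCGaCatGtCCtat
Rpl29: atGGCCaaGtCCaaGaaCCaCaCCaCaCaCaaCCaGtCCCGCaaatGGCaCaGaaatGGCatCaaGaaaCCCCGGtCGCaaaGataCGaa
Rpl39: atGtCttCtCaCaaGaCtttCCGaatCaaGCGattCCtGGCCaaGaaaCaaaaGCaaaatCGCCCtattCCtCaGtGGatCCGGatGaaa
Rpl22l1: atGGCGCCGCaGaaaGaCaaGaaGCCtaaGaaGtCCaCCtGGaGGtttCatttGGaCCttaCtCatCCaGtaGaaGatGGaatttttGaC

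Pyrimidine runs near the annotated start of transcription were looked up in RefSeq's promoter sequences of GRCm38.p6, which held 63 of the 83 genes. A run of at least 8 C or T within 40 bases of the annotated start on the coding strand was present in 48 of the 63 genes (76.2%). The share over all 27025 symbols in the table was 32.6%. On the opposite strand the shares were 20.6% and 35.5%. Of the 5 most abundant members Rpl41 and Rps3 had longest runs of 4 and 6 bases there and so none of 8. Windows of 30 bases are shown for the other 3, with the run in capitals: Rps24 on the plus strand of chr14:24490710-24490739, Rpl4 on the plus strand of chr9:64173361-64173390 and Rps15 on the plus strand of chr10:80292446-80292475. The runs begin at -37, -18 and 25 bases from the annotated start, in that order (negative is upstream). None of the 3 begins at that start, so a run counted here need not be a terminal oligopyrimidine tract.
Rps24: gagcggTCCTCTTTTCCTCCTCTCCagctc
Rpl4: gtgacaagTCTTTCCTTTTCCTgtgggagc
Rps15: gcagcccgtaCTTCCTTTTCCgagtaaccg

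A few genes held much of the signal. Rpl4, whose protein lines the exit tunnel, had the highest mean over the 82 libraries at 273 CPM. Rpl41, which encodes the smallest ribosomal protein, followed at 196 CPM, then Rps15 at 146, Rps3 at 128 and Rps24 at 113 CPM. These 5 genes made up 33.1% of the summed level. Of the others, 45 genes had means of 10 to 100 CPM, 29 of 1 to 10 CPM and 4 under 1 CPM. Levels were also divided by the length of the annotated transcript used, such as 437 bases for Rpl41 and 3706 for Rps20. These levels depend on that length and on unique sequence, given below, so genes are only roughly comparable. In uninjured cortex IP the highest were Rpl41 at 354, Rps15 at 289, Rpl4 at 176, Rpl32 at 119 and Rplp1 at 94.6 CPM per kilobase. In uninjured white matter IP they were Rpl41 at 319, Rps15 at 307, Rplp1 at 178, Rpl4 at 159 and Rps3 at 130 CPM per kilobase. The order of the 83 genes was much alike in both regions, with a Spearman correlation of 0.953 across genes, which are not independent.

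Paralogs were low. Rpl10l, known from the mouse testis, had 0 counts in all 82 libraries, which allows a level of up to 0.0140 CPM over their summed counts. Rpl39l, also a testis paralog, had counts in 3 libraries and Rpl3l, the paralog of striated muscle, in 10. Rpl22l1, Rpl7l1 and Rps27l had mean levels of 8.72, 8.60 and 7.16 CPM, above some members that are not paralogs, such as Rpl19 at 6.62 CPM. Apart from Rpl10l, Rpl39l and Rpl3l, the lowest levels per kilobase in uninjured IP were Rps6 at 0.897 and Rpl17 at 1.47 CPM per kilobase in cortex, and Rpl17 at 0.293 and Rpl24 at 0.360 in white matter. Rps6, the substrate of the S6 kinases, and Rpl17 are regular parts of the cytosolic ribosome.

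Much of the sequence of these genes recurs elsewhere. For each transcript every window of 50 bases, the read length, was looked up in the other annotated transcripts, pseudogenes included. A median of 42.6% of a gene's windows was found in no other gene. The level per kilobase had a median of 6.28 CPM in the 19 genes with under 20% unique windows, 22.7 in the 38 genes with 20% to 60% and 45.1 in the 26 genes with 60% or more. Across the 83 genes the Spearman correlation was 0.366. Rps27 (1.35% unique) and Rpl5 (6.16%) are among the genes whose low values are uncertain for this reason, while Rps3 (97.0%), Rps20 (92.4%), Rpl4 and Rpl39 (83.5% each) had high shares. These shares depend on the part of the transcript outside the coding sequence. Of windows within the coding sequence 91.9% were unique for Rps3 and 79.7% for Rpl4, but 21.7% for Rps24, 14.3% for Rps20 and 13.5% for Rpl39. Rpl29 (21.5%) shares windows with 84 other genes. The sources used here do not say how reads with several matches were placed. The 276 annotated ribosomal protein pseudogenes summed to 25.9% to 71.7% of the level of the 83 genes (median 42.4%).

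**Figure D1:**
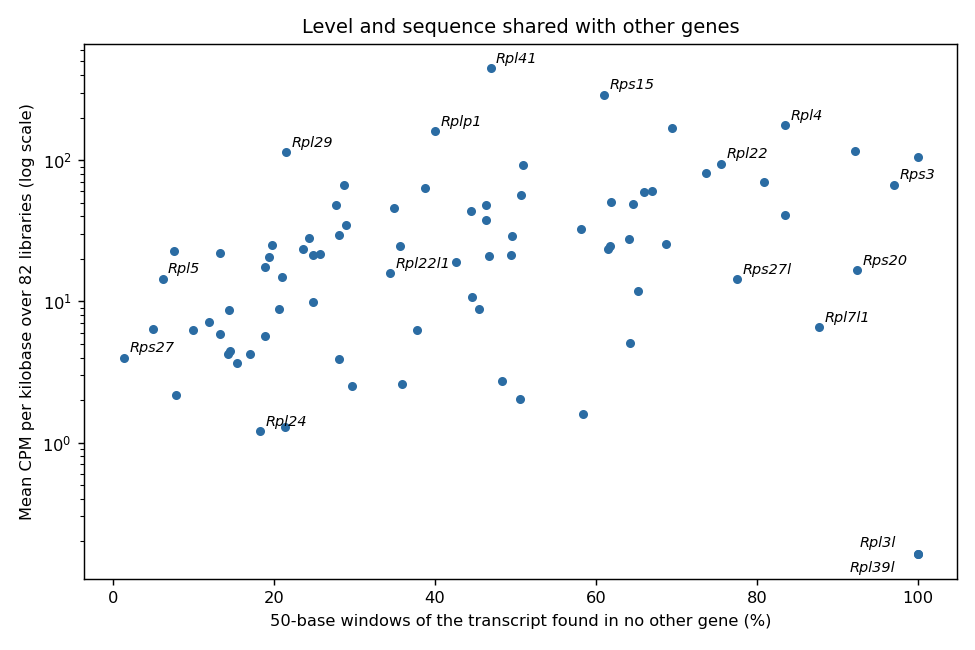
Mean level per kilobase over 82 libraries (CPM per kilobase, log scale) against the share of 50-base windows of the transcript found in no other gene (%), each point a ribosomal protein gene with any counts. The genes with under 20% unique windows lie lower, with a median of 6.28, than those with 60% or more, with a median of 45.1.

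Taken over the groups of a region, replicate libraries differed more in white matter than in cortex. Uninjured input went the other way for the summed level and for Rpl39, as the values below show. Most of the shallow libraries named above are of white matter IP. Among the 35 genes with a mean of at least 20 CPM, the standard deviation of log2 CPM (1 added) between libraries of a group had a median of 0.51 in cortex and 1.24 in white matter, and it was larger in white matter for all 35. Over both regions the most variable were Rpl27a (1.56), Rpl5 (1.5) and Rpl28 (1.49). The place of Rpl28 rests on single libraries: it had 1584 CPM in replicate 5 of white matter zone 3 and at most 71.4 CPM in any other library, and without that library its mean fell from 22.5 to 3.18 CPM, under the minimum of 20. It was the single gene of the 35 to fall under it in this way. The least variable were Rps24 (0.52), Rpl26 (0.59) and Rpl6 (0.59). Rpl27a, Rpl5 and Rpl28 all encode large-subunit proteins, and Rpl5 carries the 5S ribosomal RNA into the ribosome.

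The level of ribosomal protein mRNA was summed over the 83 genes. In uninjured white matter and in white matter stroke zones 1 to 3 combined, every IP library lay below every input library. The kinds of library overlapped in cortex. In uninjured white matter the sum was 3872, 4335, 4854, 5067 and 5119 CPM in the 5 input libraries. It was 1851, 1906, 2804, 2837 and 3196 CPM in the 5 IP libraries. Every IP library lay below every input library, and the mean input was 1.85 times the mean IP. In white matter stroke zones 1 to 3 the input libraries had 4768, 4827 and 5286 CPM and the IP libraries 2156, 2573 and 3247 CPM. Again the groups did not overlap, and the mean input was 1.87 times the mean IP. These comparisons use separate libraries.

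In uninjured cortex the input libraries had 1027, 1320, 1484, 1843 and 2124 CPM and the IP libraries 1486, 1748, 1936, 2243 and 2441 CPM. The groups overlapped, and the mean of IP was 1.26 times that of input. With all deposited counts as the total, ribosomal RNA included, that ratio was 0.909, and in uninjured white matter IP was 0.263 times input. The cortex stroke zones 1 to 3 input libraries had 1492, 1525 and 1875 CPM and IP 1468, 1551 and 1717 CPM, a ratio of 0.968, again with overlap (0.366 with all deposited counts as the total). The sum in uninjured white matter input was 2.98 times that in cortex input, and in uninjured IP 1.28 times. In these pieces of tissue, fewer cells of a type and less RNA per cell cannot be told apart. Mitochondrial mRNA, which is part of the total, held 3.81 to 7.65% of counts in uninjured white matter input and 12.2 to 20.2% in its IP. In uninjured cortex it held 18.7 to 25.5% and 10.6 to 21.0%. Its part in the differences between single genes was not tested.

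**Figure D2:**
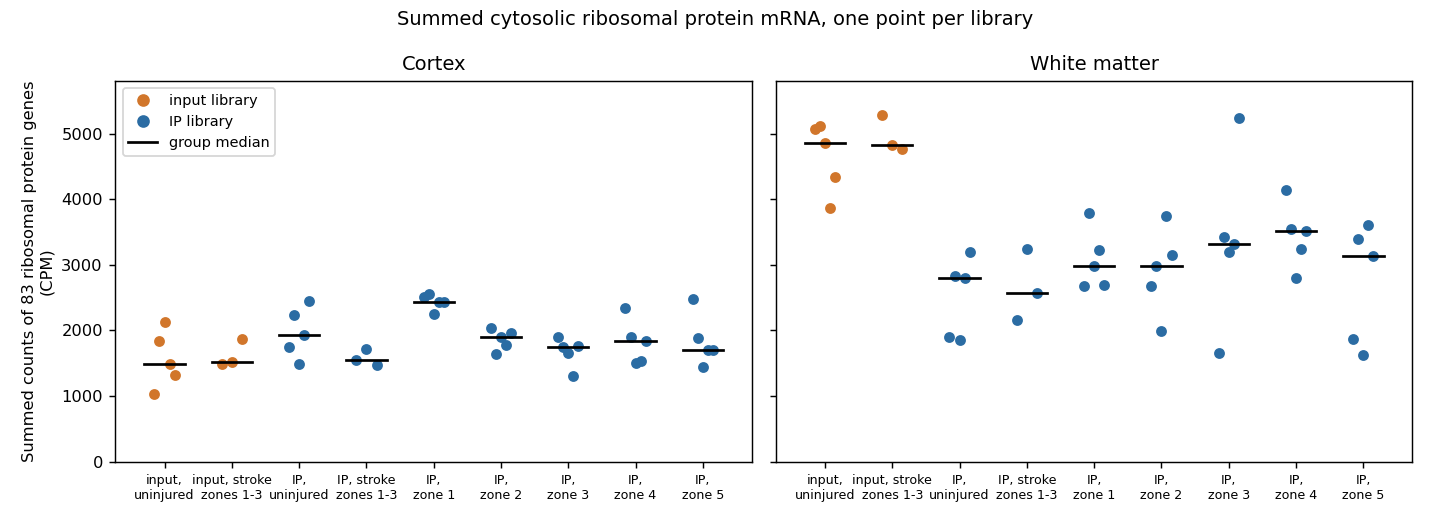
Summed level of the 83 ribosomal protein genes (CPM) in each library, by group, in cortex and white matter, with input libraries in orange, IP libraries in blue and a line at each group's median. White matter input lies at 3872 to 5286 CPM, above the white matter IP libraries of uninjured tissue and of the combined stroke zones. IP libraries of the separate white matter zones reach 5239 CPM and overlap with the input. Cortex input and IP overlap.

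Within cortex, IP and input differed gene by gene, with members on both sides. Among the 50 genes with enough counts to test in uninjured tissue, 5 were higher in IP (10% of those tested) and 6 lower (12%) at an adjusted p under 0.05 in edgeR's quasi-likelihood test with Benjamini-Hochberg adjustment over all genes. The shares among all 11280 genes tested were 12% higher and 13.4% lower, so the count of members called is near the background. The other 33 genes had too few counts. In CPM 5 members lay above every input library in all IP libraries, beside 16.7% of genes, and 0 below, beside 3.73%. The median log2 fold change was -0.06 for the members and -0.11 for all genes tested. TMM scaling moved this comparison by -0.26 (log2), so fold changes are relative to that shift, whereas CPM values are not scaled by it. Without TMM, scaled by total counts, the members' median was 0.23 and their split 6 higher and 3 lower, and that of all genes 1913 and 889 in place of 1349 and 1509. The count of called members ran from 7, without IP replicate 4, to 17, with 12 of them lower, without input replicate 1.

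The genes called higher in cortex IP were mostly of the small subunit. Rps15, whose protein is needed to export the small subunit from the nucleus, had 14.7, 20.4, 24.5, 35.7 and 54.9 CPM in the 5 uninjured cortex input libraries. It had 106, 140.4, 143, 155 and 177 CPM in the 5 IP libraries, each above every input library. The log2 fold change was 1.94 ± 0.29 (SE; adjusted p = 0.000186). The gene stayed past the threshold in all 10 fits that left out a library, at 1.77 to 2.18.

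Rpsa, a small-subunit protein also known as the laminin receptor, had 12.5, 14.4, 18.6, 19.3 and 22.9 CPM in input. In IP it had 47.0, 49.9, 60.6, 72.0 and 82.1 CPM, and the groups did not overlap. The log2 fold change was 1.49 ± 0.32 (adjusted p = 0.00299). Rpsa shares windows with 28 other genes, and 1.2% of its coding windows are unique, so its reads are uncertain. Rps3, which sits where mRNA enters the small subunit, had 5.40, 7.33, 15.4, 24.2 and 31.7 CPM in input and 46.0, 60.5, 63.2, 71.6 and 121 CPM in IP. Again every IP library was above every input library, and the log2 fold change was 1.78 ± 0.41 (adjusted p = 0.00431). Rps14, near the decoding site, passed narrowly at 1.39 ± 0.50 (adjusted p = 0.0486) and kept the call in 2 of the 10 fits that left out a library, with adjusted p up to 0.122.

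Rpl29 was the large-subunit gene called higher in uninjured cortex IP. Its protein is dispensable in mice, which grow small without it. Input libraries had 5.5, 5.70, 20.4, 22.2 and 25.5 CPM. IP libraries had 37.3, 38.4, 54.0, 59.7 and 84.6 CPM, all above the input. The log2 fold change was 1.46 ± 0.42 (adjusted p = 0.0162), and it missed the threshold, with an adjusted p of 0.0666, without IP replicate 5. Because Rpl29 shares windows with many pseudogenes, its reads are uncertain.

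The genes called lower in cortex IP came from both subunits and the stalk. Rpl39, a small protein of the exit tunnel, had 7.33, 41.0, 42.0, 45.0 and 46.1 CPM in input and 9.48, 11.6, 12, 15.1 and 18.9 CPM in IP. Input replicate 1, at 7.33 CPM, was the single input library below the IP libraries, and the other input libraries lay above all of them. The log2 fold change was -1.79 ± 0.45 (adjusted p = 0.00711). Rpl37, a zinc-binding protein of the large subunit, had 14.7, 38.2, 44.9, 47.8 and 48.6 CPM in input and 11.1, 12.6, 15, 18.4 and 27.5 CPM in IP. Its groups overlapped through the same input replicate 1, and its log2 fold change was -1.57 ± 0.39 (adjusted p = 0.00774).

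Rps20, of the head of the small subunit, had 27.5, 60.6, 69.1, 70.1 and 92.1 CPM in input and 23.0, 29.1, 32.3, 41.7 and 45.0 CPM in IP. The 4 input libraries other than replicate 1 lay above every IP library. The log2 fold change was -1.23 ± 0.31 (adjusted p = 0.00794). Rps24, a small-subunit protein mutated in some patients with Diamond-Blackfan anaemia, had 43.1, 81.1, 87.2, 90.3 and 118 CPM in input and 49.9, 51.2, 52.0, 62.2 and 69.1 CPM in IP, with the same pattern. Its log2 fold change was -0.90 ± 0.26 (adjusted p = 0.0169), and it fell short of the threshold (adjusted p = 0.0965) with total-count scaling. The stalk protein gene Rplp1 had 29.3, 53.6, 90.1, 96.6 and 111 CPM in input and 31.6, 37.9, 39.0, 45.4 and 82.1 CPM in IP, with overlap. Its log2 fold change was -1.02 ± 0.33 (adjusted p = 0.0292), with an adjusted p of 0.126 with total-count scaling. Its partners Rplp0 and Rplp2 did not pass, at 0.64 ± 0.49 and 0.89 ± 0.58.

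Among the 50 tested members, input replicate 1 had the lowest CPM of its group for 25 and the highest for 8, while each other input library was lowest for 1 to 16. It was lowest for Rps15, Rpl29, Rpl39, Rpl37, Rps20, Rps24, Rplp1, Rpl4 and Rpl22, and highest for Rpsa, Rps14 and Rpl22l1. This library also had the highest sum of olfactory and vomeronasal receptor genes, 7450 CPM against 1280 to 2124 CPM in the other uninjured cortex input libraries. The part of such signal in the fold changes was not tested beyond leaving the library out. In cortex stroke zones 1 to 3 these genes summed to 994 to 2560 CPM in input and 65.3 to 109 CPM in IP, and in uninjured white matter to 92.4 to 155 and 3.30 to 108 CPM. Without input replicate 1 Rpl39 had a log2 fold change of -2.07 and the count of members called lower was 12.

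Rpl22, the protein tagged in the cited method, was not past the threshold between IP and input in cortex. It had 9.17, 17.7, 27.5, 29.4 and 60 CPM in uninjured input and 25.3, 30, 33.9, 38.8 and 52.2 CPM in IP. The IP values lay inside the range of input, and the log2 fold change was -0.03 ± 0.41 (adjusted p = 0.963), with a 95% interval of -0.85 to 0.78. Its paralog Rpl22l1, which can take its place in the ribosome, had 7.25, 10.8, 17.7, 30.2 and 32.1 CPM in input and 5.69, 6.0, 6.39, 7.57 and 11.4 CPM in IP. The groups overlapped, and the log2 fold change of -1.74 ± 0.53 (adjusted p = 0.0212) lost the threshold with total-count scaling, without the low-count filter or without IP replicate 1, 3 or 4 (adjusted p up to 0.0623). Rpl4, the most abundant member, had 57.8, 153, 156, 204 and 228 CPM in input and 211, 259, 288, 292 and 306 CPM in IP. Its log2 fold change of 0.41 ± 0.28 did not pass (adjusted p = 0.295).

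The cortex stroke libraries of zones 1 to 3, which are separate from the uninjured ones, gave calls that overlapped with these. Among 49 genes tested, 4 were higher in IP (8.16%) and 12 lower (24.5%), beside 13.6% and 14.9% of 11476 genes. In CPM 11 members lay above every input library in all IP libraries, beside 29.4% of genes, and 15 below, beside 16.2%. Of the called genes 9 were shared with uninjured cortex, with 4 higher and 5 lower, which is 81.8% of the 11 and 56.2% of the 16, and none was called in opposite directions. Scaled by total counts, without the TMM shift of -0.21, the members' split was 4 higher and 7 lower, and that of all genes 1823 and 1172 in place of 1559 and 1710. Over the 49 genes the Pearson correlation of the fold changes was 0.837, with 34 of the same sign. The shared calls and this correlation were not computed over all genes. Whether such agreement is particular to these members was therefore not tested. The count fell to 3 when any single IP replicate was left out and to 10 without input replicate 1.

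Rps15 had 18.9, 25.9 and 28.8 CPM in stroke input and 99.4, 104 and 105 CPM in stroke IP, with no overlap, and a log2 fold change of 1.83 ± 0.29 (adjusted p = 0.000892). Rpl29 had 8.68, 11.1 and 17.6 CPM in input and 39.2, 45.1 and 47.4 CPM in IP, without overlap, and a log2 fold change of 1.58 ± 0.44 (adjusted p = 0.0191). That value was 0.79 (adjusted p = 0.186) when the counts of pseudogenes were added to the parent gene. Rpsa had 14.0, 15.9 and 23.9 CPM in input and 40.4, 47.3 and 62.5 CPM in IP, and its log2 fold change was 1.26 ± 0.37 (adjusted p = 0.0255). Rps3 also passed, at 1.34 ± 0.45 (adjusted p = 0.0422).

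On the lower side, Rps20 had 67.2, 79.7 and 84.5 CPM in stroke input and 20.4, 23.4 and 36.9 CPM in IP. All IP libraries were below all input libraries, and the log2 fold change was -1.76 ± 0.34 (adjusted p = 0.00270). Rps24 had 75.1, 119.7 and 139 CPM in input and 40.8, 49.4 and 57.3 CPM in IP, also without overlap, and a log2 fold change of -1.41 ± 0.29 (adjusted p = 0.00413). Rps15, Rps20 and Rps24 kept their calls in all 6 fits that left out a library. Rpl5, the 5S ribosomal RNA partner, had 31.0, 34.0 and 62.8 CPM in input and 13.2, 16.3 and 17.0 CPM in IP, and a log2 fold change of -1.67 ± 0.38 (adjusted p = 0.00785). Few of its windows are unique, so its counts are uncertain. The other 9 genes called lower were Rpl32, Rpl39, Rpl27a, Rpl22l1, Rpl26, Rpl23, Rplp1, Rpl30 and Rpl13, all of the large subunit or its stalk. Their log2 fold changes ran from -2.14 to -0.91. Rpl22 stood at 0.01 ± 0.40 and Rpl4 at -0.02 ± 0.16, both not past the threshold.

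**Figure D3:**
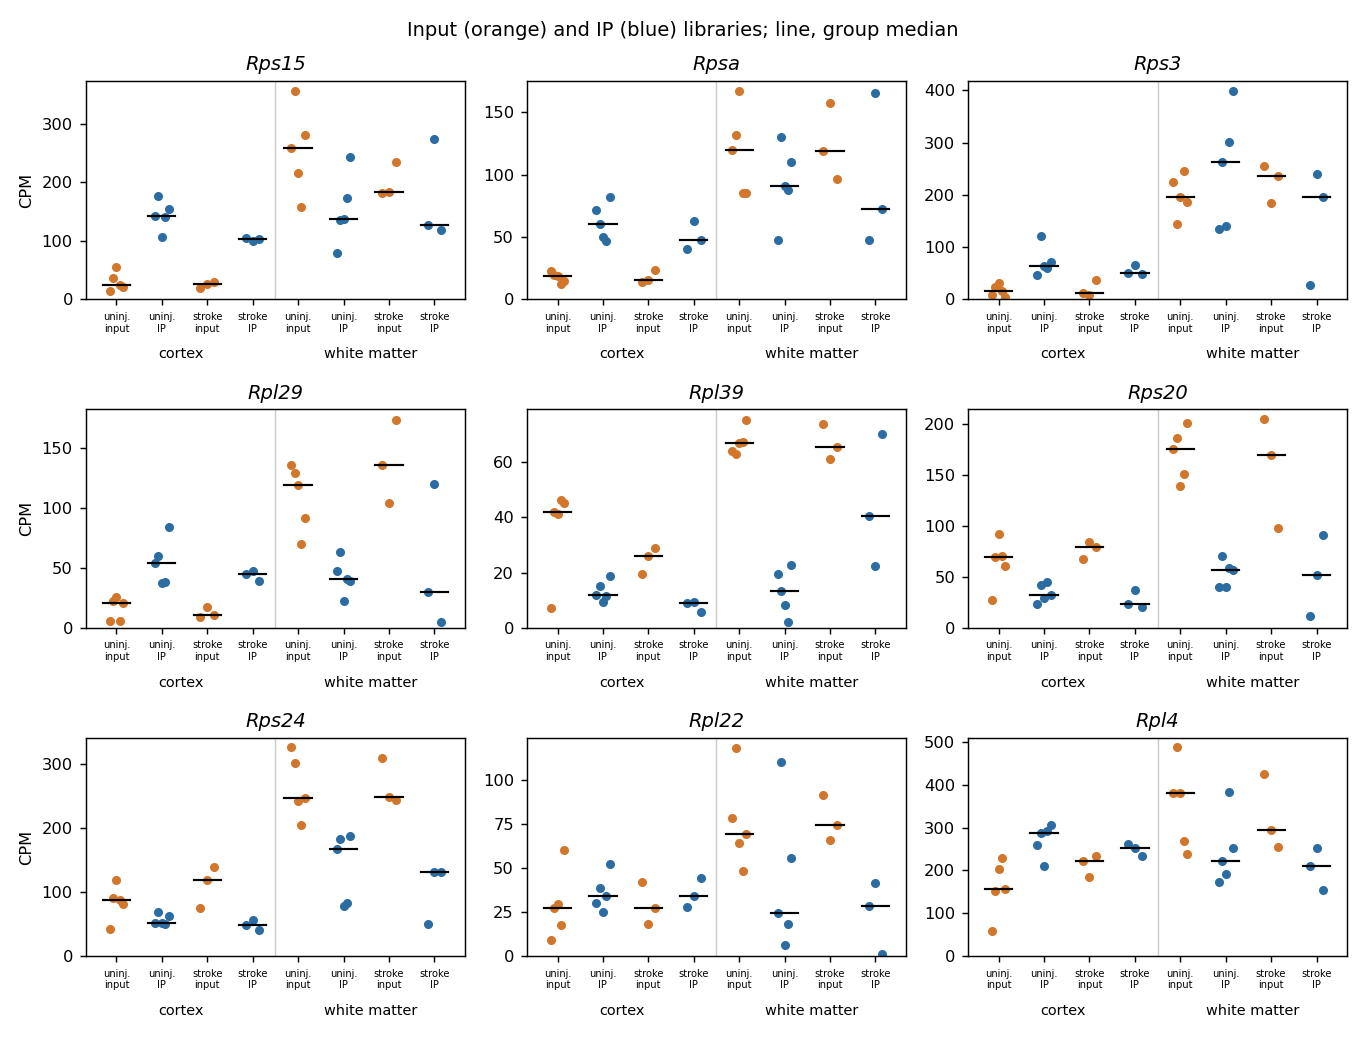
CPM of 9 ribosomal protein genes in each uninjured and stroke zones 1 to 3 library, input in orange and IP in blue, with a line at each group's median; cortex is on the left of each panel and white matter on the right. Rps15, Rpsa, Rps3 and Rpl29 lie higher in cortex IP than in cortex input, while Rps20 and Rps24 lie lower in IP in both cortex groups apart from uninjured input replicate 1.

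The cortex fold changes moved with base composition, for these genes as for all others. Across the 50 members tested in uninjured cortex, the Spearman correlation between the log2 fold change and the GC content of the coding sequence was 0.480. Across all 9961 tested genes with a coding sequence it was 0.491. Genes of the lowest GC decile had a median log2 fold change of -0.89 and those of the highest of 0.60. In cortex stroke tissue the correlations were 0.550 (49 members) and 0.571 (10153 genes), with decile medians of -1.02 and 0.92. In white matter they were weaker, at 0.101 (65 members) and 0.239 (10164 genes) in uninjured tissue. All of these genes were measured in the same libraries, and the correlations are a description. The mean coding GC content of a library, weighted by CPM, was 45.8 to 47.5% in uninjured cortex input and 48.9 to 50.8% in its IP. In white matter it was 49.7 to 51.0% and 49.2 to 50.5%. The part of base composition in the cortex calls was not tested.

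The called members were also set beside the genes of like GC content, as a description. Rps15 (GC 58.9%) was 1.33 above the median log2 fold change of its decile in uninjured cortex, Rps3 (53.5%) 1.63 above and Rpsa (56.7%) 0.96 above. The quartiles of all genes in these deciles were -0.13 and 1.26, -0.42 and 0.71, and -0.18 and 1.11, in that order. Rpl37 (55.0%) and Rplp1 (58.2%) differed from the medians of their deciles by -1.93 and -1.64, where the quartiles were -0.30 and 0.90, and -0.13 and 1.26. Rpl39 (45.1%) and Rps20 (49.0%) differed by -1.26 and -1.01, with quartiles of -0.98 and -0.16, and -0.74 and 0.28. The fold changes of these 7 genes lay outside the quartiles of their deciles. By definition many genes of any decile do so, and these members were picked by the same fold changes. Their place therefore cannot test the part of base composition. Rps24 (46.1%) was closer, at -0.37, and lay between the quartiles.

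**Figure D4:**
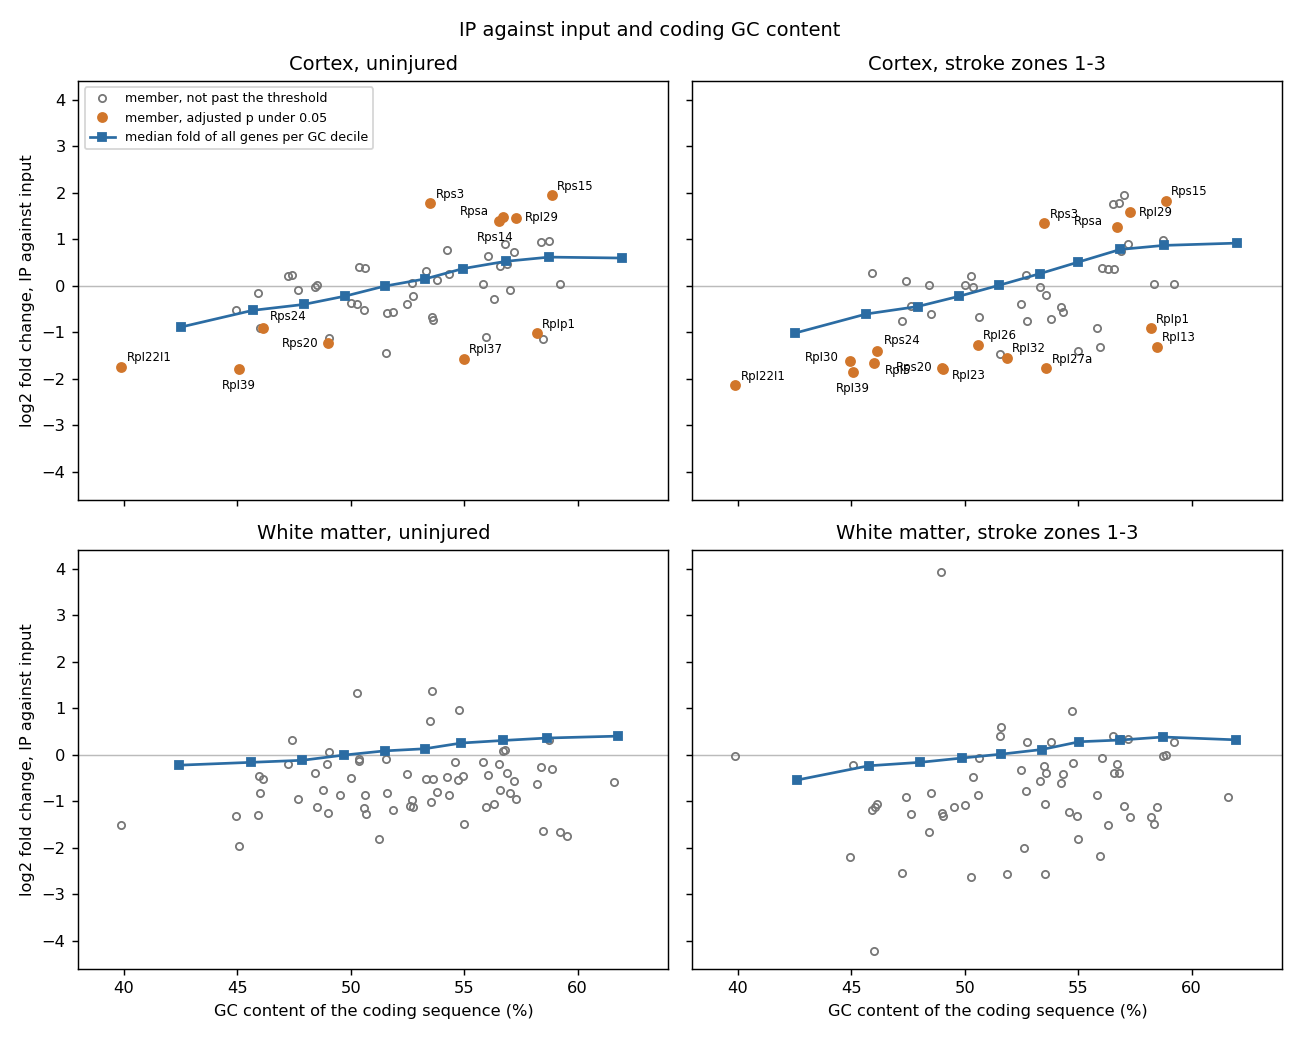
Log2 fold change of IP against input against the GC content of the coding sequence (%), with a panel for each region and state. Each circle is a tested ribosomal protein gene, filled and named where its adjusted p is under 0.05, and blue squares give the median fold change of all genes per GC decile, which climbs from -0.89 to 0.60 in uninjured cortex.

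In white matter no single member passed the test, while most had negative fold changes. Of 65 genes tested in uninjured tissue, edgeR called 0, beside 0.527% of 11950 genes higher and 0.0753% lower. At an unadjusted p under 0.05 there were 12 lower and 1 higher, against 11.3% of all genes in either direction, and DESeq2 called 5 lower: Rpl13, Rpl32, Rpl37, Rpl39 and Rps20. The fold change was negative for 86.2% of the members and 48.2% of all genes. Its median was -0.58 for the members and 0.04 for all genes. TMM moved this comparison by 0.41 (log2). Scaled by total counts the medians were -1.02 and -0.36, 2 members were called lower (Rps20 and Rpl32), and 24 genes were higher and 43 lower in place of 63 and 9. In the same comparison 3 of 13 oligodendrocyte markers, 1 of 15 neuronal markers and 1 of 19 astrocyte markers were higher in IP and none of these lists had a lower one. Mbp, of myelin, was higher at 1.36 ± 0.21 (adjusted p = 0.00200) and Camk2a, a neuronal kinase, at 2.58 ± 0.33 (adjusted p = 0.000138). The part of these cells in the ribosomal protein values was not tested.

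In CPM 20 of the 65 genes (30.8%) were lower in every uninjured white matter IP library than in any input library, and none was higher in that sense. The share among all genes was 4.79% lower and 0.619% higher. In white matter stroke zones 1 to 3 this held for 26 of 60 genes (43.3%) beside 10.3% of 11689 genes, with none higher beside 3.66%. Both comparisons showed it for 13 of the 58 genes tested in each, beside 1.27% of 10492 genes. These were Rpl13, Rpl21, Rpl26, Rpl32, Rpl37, Rpl41, Rplp1, Rps4x, Rps15a, Rps20, Rps24, Rps25 and Rps26, from both subunits and the stalk. CPM carries the shift in scaling given above.

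Rps20 had the lowest adjusted p among the members in uninjured white matter. It had 139, 151, 175, 186 and 201 CPM in input. In IP it had 39.6, 40.4, 57.0, 58.7 and 70.8 CPM, far below the input without overlap. Its log2 fold change of -1.26 ± 0.33 did not pass (adjusted p = 0.105). Rpl39 had 63.1, 64.1, 67.0, 67.3 and 75.4 CPM in input and 2.20, 8.08, 13.3, 19.6 and 22.7 CPM in IP, a log2 fold change of -1.97 ± 0.60 (adjusted p = 0.177). Input values lay close together and IP values spread widely.

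The genes called higher in cortex IP took other positions here. Rps15 had 157, 216, 259, 281 and 356 CPM in white matter input and 78.4, 136, 137, 174 and 243 CPM in IP. The groups overlapped, at a log2 fold change of -0.31 ± 0.31 (adjusted p = 0.760). Rpl29 had 70.4, 91.5, 119, 129 and 136 CPM in input and 22.3, 39.5, 40.4, 47.3 and 63.2 CPM in IP, without overlap, at -0.94 ± 0.41 (adjusted p = 0.388). Rps3 stood at 0.73 ± 0.32 and Rpsa at 0.07 ± 0.36, neither past the threshold. Rpl22 had 48.0, 64.3, 69.3, 78.1 and 118 CPM in input and 6.54, 18, 24.3, 55.6 and 110.0 CPM in IP, a log2 fold change of -0.38 ± 0.60. Rpl22l1 stood at -1.52 ± 0.93 and Rpl4 at -0.10 ± 0.28. None of these passed.

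White matter stroke zones 1 to 3 gave wider errors. No member of 60 was called, and no gene at all (0% of 11689 higher and 0% lower). At an unadjusted p under 0.05 there were 2 members lower, beside 6.65% of genes, and DESeq2 called Rpl5 lower. The median log2 fold change was -0.86 for the members, 83.3% of them negative, and -0.02 for all genes, 50.5% of them negative. Rpl32, of the large subunit, had 225, 255 and 298 CPM in input and 9.74, 46.5 and 68.6 CPM in IP, a log2 fold change of -2.56 ± 0.75 (adjusted p = 0.558). Rpl5 had 16.1, 30.8 and 118 CPM in input and 1.91, 2.75 and 2.95 CPM in IP, at -4.22 ± 1.46 (adjusted p = 0.590). Rpl41 had 438, 443 and 447 CPM in input and 197, 207 and 314 CPM in IP, at -0.57 ± 0.52. Both comparisons were negative for 40 of the 58 genes tested in each (69.0%), beside 28.4% of genes.

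The difference between the regions was tested directly, as the log2 fold change of IP against input in uninjured cortex minus that in uninjured white matter. Of 69 members tested, 2 were past the threshold, both positive, beside 0.186% of 15073 genes positive and 0.577% negative. For Rps15 the difference was 2.33 ± 0.47 (adjusted p = 0.00967), and it was past the threshold in all 20 fits that left out a library. For Rpl29 it was 2.48 ± 0.61 (adjusted p = 0.0445). That call was kept in 7 of 20 such fits, with adjusted p up to 0.113. Rpsa (1.52 ± 0.48, adjusted p = 0.129) and Rps3 (1.13 ± 0.54, adjusted p = 0.350) did not pass. The median difference was 0.71 for the members and -0.09 for all genes. TMM moved these differences by -0.59. With total-count scaling the medians were 1.31 and 0.48, 3 members were called positive (Rps15, Rpl29 and Rpsa), and 277 genes were positive and 78 negative in place of 28 and 87.

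IP libraries were also compared between regions. Of 56 members tested, 12 were lower in uninjured cortex IP than in uninjured white matter IP (21.4%) and 0 higher, beside 15.5% and 12% of 11815 genes. Among them were Rps3, Rps24, Rps20 and Rpsa of the small subunit, Rpl8 and Rpl21 of the large subunit and all 3 stalk genes Rplp0, Rplp1 and Rplp2. The median log2 fold change was -0.81, with 92.9% of members negative, beside -0.23 and 56.2% for all genes. TMM moved the comparison by -0.51. Scaled by total counts the members' median was -0.27, with 1 member higher and 2 lower, and 2038 genes were higher and 1073 lower in place of 1413 and 1833. The count of called members ran from 3 to 14 when a library was left out, and was 3 to 5 when the library left out was of cortex IP.

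Rps3 had 46.0, 60.5, 63.2, 71.6 and 121 CPM in cortex IP and 134, 141, 263, 301 and 398 CPM in white matter IP, with no overlap, and a log2 fold change of -2.33 ± 0.36 (adjusted p = 0.000197). Rps24 had 49.9, 51.2, 52.0, 62.2 and 69.1 CPM in cortex IP and 78.1, 83.3, 168, 183 and 188 CPM in white matter IP, also without overlap, and its log2 fold change was -1.83 ± 0.33 (adjusted p = 0.000668). Both kept their calls under every alternative run. Rplp1 had 31.6, 37.9, 39.0, 45.4 and 82.1 CPM in cortex IP and 45.4, 87.7, 95.1, 101 and 116 CPM in white matter IP, with overlap, and a log2 fold change of -1.47 ± 0.38 (adjusted p = 0.00846). It did not pass with total-count scaling (adjusted p = 0.0897). Rplp0 (-1.51 ± 0.51) and Rplp2 (-1.79 ± 0.63) lost the call with total-count scaling and in most fits that left out a library. In the same comparison all 13 oligodendrocyte markers were lower in cortex, where they summed to 1883 to 2643 CPM. Of 15 neuronal markers 13 were higher in cortex, and they summed to 1123 to 2651 CPM in white matter IP. The part of such cells in these differences was not tested. Rpl22 (-0.81 ± 0.62), Rpl22l1 (0.10 ± 0.71), Rpl4 (-0.40 ± 0.26) and Rps15 (-0.62 ± 0.30) did not pass.

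The zones after stroke were set against uninjured IP of the same region. In no zone of either region was a member past the threshold. In cortex zones 1 to 5, with 57, 52, 55, 55 and 56 genes tested, the shares of all genes called were 5.3%, 3.64%, 0.0405%, 0% and 0%. In white matter zones 1 to 5, with 58, 56, 56, 58 and 57 genes tested, the shares were 0.45%, 0.941%, 0%, 0.0666% and 0%. At an unadjusted p under 0.05 there were 2, 1, 2, 4 and 2 members in the cortex zones, beside 16.2%, 14.8%, 5.88%, 6.85% and 5.6% of all genes, and 2, 1, 2, 0 and 3 in the white matter zones, beside 14%, 14%, 11.4%, 10.9% and 9.13%. DESeq2 called 0 members in each zone except white matter zone 2, where it called 1.

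The members' median log2 fold change in cortex was 0.21 in zone 1, -0.10 in zone 2, -0.26 in zone 3, -0.19 in zone 4 and -0.11 in zone 5. All genes had medians between -0.01 and 0.07 in these comparisons, which share their uninjured libraries. In white matter the members' medians were 0.04, -0.14, 0.26, 0.28 and 0.22, beside -0.12 to 0.12 for all genes. The median standard error of a member was 0.27 to 0.46 in cortex and 0.82 to 1.01 in white matter, so only large changes were detectable there. The 3 IP libraries of stroke zones 1 to 3 against uninjured IP gave 0 calls in each region with edgeR, beside 0.232% of genes in cortex and 0.0333% in white matter, and 0 with DESeq2. There were 6 members in cortex and 2 in white matter at an unadjusted p under 0.05, beside 7.4% and 8.45% of genes.

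**Figure D5:**
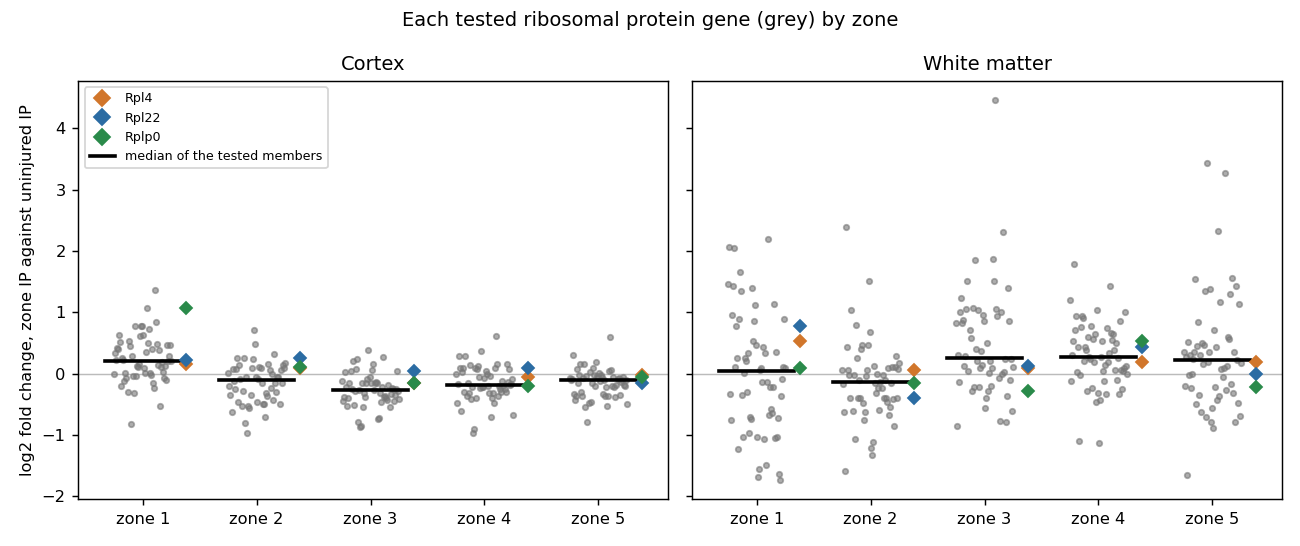
Log2 fold change of IP in each stroke zone against uninjured IP of the same region for every tested ribosomal protein gene (grey points), with the median as a black line and Rpl4, Rpl22 and Rplp0 as coloured diamonds. Cortex medians lie between -0.26 and 0.21, and the points spread more widely in white matter.

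In cortex zone 1 the sum lay in a narrow range. The 5 libraries had 2255, 2429, 2431, 2506 and 2562 CPM, 1.24 times the uninjured IP mean, and overlapped with the uninjured libraries, which reached 2441 CPM. The sum ran from 1642 to 2033 CPM in zone 2, 1299 to 1902 in zone 3, 1508 to 2348 in zone 4 and 1444 to 2478 in zone 5. Rplp0, the base of the stalk, had 13.0, 16.4, 23.4, 24.6 and 41.8 CPM in uninjured cortex IP and 20.2, 49.3, 53.9, 65.7 and 72.5 CPM in zone 1. The low zone 1 value was of replicate 4, and the log2 fold change of 1.07 ± 0.40 did not pass (adjusted p = 0.156). Rpl41 had 99.2, 137, 139, 166 and 231 CPM in uninjured IP and 181, 201, 267, 274 and 296 CPM in zone 1, a log2 fold change of 0.61 ± 0.23 (adjusted p = 0.159). Rpl4 (0.16 ± 0.17), Rpl22 (0.23 ± 0.39) and Rpl22l1 (-0.12 ± 0.70) were not past the threshold. Without zone 1 replicate 4 the comparison called 1 member, Rplp0.

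Cortex zone 1 was also set against zone 5, which shares no libraries with it. Of 62 members tested 1 was higher, beside 6.01% of 13784 genes, and 0 lower, beside 1.22%. The gene was Rpl41, with 79.8, 124, 136, 156 and 202 CPM in zone 5 against the zone 1 values above, which overlap in the range from 181 to 202 CPM. Its log2 fold change was 0.81 ± 0.23 (adjusted p = 0.0385), and the call was lost without the shallow zone 1 replicate 1 (adjusted p = 0.0641) and in 7 of 10 fits that left out a library. At an unadjusted p under 0.05 there were 7 members, beside 19.8% of genes. DESeq2 called 4 members higher, Rpl41, Rplp0 and Rplp1 among them. The fold change was positive for 53 of the 62 genes and negative for 14.5% of them, beside 46.0% negative among all genes. The members' median was 0.30 beside 0.07 for all genes. Rplp0 stood at 1.07 ± 0.35 (adjusted p = 0.0758). In cortex zone 1, 16 of 16 microglia and macrophage markers were higher than in uninjured IP, with sums of 1747 to 3328 CPM against 139 to 341 CPM. Of 13 oligodendrocyte markers 9 were higher, with sums of 5474 to 9241 against 1883 to 2643 CPM. The part of these cells in the ribosomal protein values was not tested.

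In white matter the zones held wide ranges. Summed CPM ran from 2682 to 3787 in zone 1, 1999 to 3745 in zone 2, 1650 to 5239 in zone 3, 2798 to 4138 in zone 4 and 1622 to 3607 in zone 5, beside 1851 to 3196 in uninjured IP. The lowest values of zones 3 and 5 were of shallow libraries. The highest of zone 3, replicate 5, held 1584 CPM of Rpl28 alone and had 3655 CPM without that gene. Rps3 in zone 1 stood at -1.63 ± 0.66 (adjusted p = 0.258). Rpl22 (0.77 ± 0.90), Rpl22l1 (0.26 ± 1.11) and Rpl4 (0.54 ± 0.53) did not pass, and the signs of Rpl22 and Rpl4 turned without the shallow libraries. Zone 1 against zone 5 in white matter gave 0 calls of 55, beside 0.369% of 10017 genes, and 4 members at an unadjusted p under 0.05, beside 10.3%. DESeq2 called 1 there. The difference of the zone 1 change between cortex and white matter gave 0 calls of 66, beside 1.88% of 14601 genes. There were 5 at an unadjusted p under 0.05, beside 17.4%, and 1 in DESeq2. Stroke input against uninjured input gave 0 calls in cortex, of 51, beside 0.0074% of genes, and 0 in white matter, of 73, beside 0.055%. At an unadjusted p under 0.05 there were 0 and 4 members, beside 4.99% and 9.62%, and DESeq2 called 0 in both.

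Other genes of the translation machinery were counted from lists of such genes. In uninjured cortex IP against input, 18 further mRNAs known to carry a terminal oligopyrimidine tract had 3 members higher and 1 lower. Eef2, the translocation factor, was higher at 1.76 ± 0.23 (adjusted p = 7.33e-05), and Naca, which binds emerging chains, lower at -1.46 ± 0.33 (adjusted p = 0.00382). Of 33 initiation and elongation factors 5 were higher and 3 lower, of 35 ribosome assembly factors 3 were higher and 2 lower, and of 61 mitochondrial ribosomal protein genes 0 were higher and 4 lower. The shares among all genes were 12% and 13.4%, as above.

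In uninjured white matter the further terminal oligopyrimidine mRNAs had a median log2 fold change of 0.14 in IP against input, with 8 of 18 negative, beside -0.58 for the ribosomal protein genes. Of 47 nuclear genes of the respiratory chain, which are also short, 43 were negative, with a median of -0.84 and 1 called lower, Cox7b, a subunit of cytochrome oxidase, at -3.0. The 45 tested ribosomal protein pseudogenes had 42 negative and a median of -0.76. Mitochondrial ribosomal protein genes had a median of -0.56, with 40 of 59 negative.

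In cortex zone 1 against uninjured IP 3 of 18 further terminal oligopyrimidine mRNAs were higher and 0 lower, beside 4.81% and 0.495% of all genes. The microglia, macrophage and oligodendrocyte markers given above were higher in the same libraries, and their part in these values was not tested. Of the further terminal oligopyrimidine mRNAs Pabpc1, the poly(A)-binding protein, was higher at 1.5 ± 0.23 (adjusted p = 0.000361) and the elongation factor Eef1a1 at 0.78 ± 0.17 (adjusted p = 0.00694). The ribosomal protein genes, with 0 of 57 called, had a median of 0.21 and these 18 a median of 0.44. The initiation and elongation factors had a median of 0.05 (34 tested) and the ribosome assembly factors of -0.01 (37 tested).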

How the data were processed

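Laser-captured tissue was sequenced as paired 50-base reads, per the labels' protocols, after fixation of the brain with 0.5% paraformaldehyde and whole-transcriptome amplification (NuGEN Ovation V2), which primes along transcripts. The authors deposited a table of raw counts per gene for all samples, and the submitters' processing notes name the builds GRCm38 and mm10. For aligner, counter and strand setting, nothing is stated in the sources used here. Columns are named by letters and numbers in place of titles. L was read as white matter, M as cortex, and the numbers as zone and replicate, which the sources used here do not spell out. In uninjured libraries the oligodendrocyte markers summed to 32697 to 54712 CPM in columns read as white matter and 1043 to 2643 CPM in those read as cortex. On this reading 0 columns were without a sample. The design text gives 4 to 5 samples per zone and the labels 5. No sample was left out.

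Counts in 6 ribosomal RNA rows were set aside, and CPM is counts per 1000000 of the rest. Each of 23 comparisons was fitted on all other genes of the libraries compared, after a filter on low counts (filterByExpr, minimum count 10 and total 15), with TMM scaling and edgeR's quasi-likelihood test, Benjamini-Hochberg adjustment and a threshold of 0.05. The SE was taken as the size of the log2 fold change over the root of the F statistic. R 4.3.3, edgeR 4.0.16, limma 3.58.1, DESeq2 1.42.0, Python 3.11.15, pandas 2.3.3 and scipy 1.17.1 were used, and the fits were tested on simulated data. Alternatives were RLE size factors, no filter, DESeq2, the replicate number as a block, leaving out each library and leaving out shallow libraries. Total-count scaling, adding pseudogene counts to the parent gene and leaving mitochondrial mRNA out of the total were chosen after seeing the data. All 152 pairs of replicate libraries differed by more than sampling noise, with a chi-square of at least 3.16 per degree of freedom over genes with 20 or more counts. Reads carry no molecular identifiers, so counting error is a lower limit, including that of a count of 0 (3 counts).

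The members and lists were chosen with earlier results of these data known. Named in each comparison were the 3 called members on each side with the lowest adjusted p, the most abundant member not called, Rpl22 and Rpl22l1, with paralogs, the highest and lowest levels per kilobase, the most and least variable members, and up to 2 called genes of each other list. Other members named were chosen after their values were seen. Markers and related genes came from the lists on astrocytes, neurons, oligodendrocytes, microglia and macrophages, endothelium, the respiratory chain and the translation machinery.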

Additional observations from a re-analysis of the deposited data

Results flagged for a closer look

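Rpl39, the exit-tunnel protein gene, had 1 library apart from its group in 3 groups. In uninjured cortex input it was at 7.33 CPM in replicate 1 and at 41.0 to 46.1 CPM in the other 4 libraries. In white matter zone 1 IP it was at 78.5 CPM in replicate 1 and at 7.42 to 14.8 CPM in the others. In white matter zone 5 IP it was at 197 CPM in replicate 3 and at 5.40 to 37.1 CPM in the others. The last 2 are shallow libraries. Each stood out because its gap to the nearest library was over 0.71 of the range of the group.

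The 3 most variable members did so too, mostly in white matter IP. Rpl28 was at 1584 CPM in replicate 5 of zone 3, with at most 3.79 CPM in the other libraries. It was at 15.2 CPM in replicate 3 of zone 1, 17.3 CPM in replicate 2 of zone 4 and 71.4 CPM in the shallow replicate 3 of zone 5. In cortex it was at 4.64 CPM in replicate 3 of uninjured input and 1.84 CPM in replicate 3 of zone 2 IP. Rpl27a was at 357 CPM in replicate 3 of white matter zone 1, 46.2 CPM in replicate 3 of zone 2 and 95.1 CPM in replicate 4 of zone 3. Rpl5 was at 71.9 CPM in replicate 3 of white matter zone 3, 60.5 CPM in replicate 2 of zone 4 and 89.8 CPM in the shallow replicate 1 of cortex zone 1. All of these were the highest of their groups.

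Of 160 groups of values examined 15 had such a library. Chance alone gives about 1 in 20 for normally distributed values that were not picked by their spread. The values were the summed level and these 3 members in every group of 5 libraries, and 13 other members in the uninjured groups and zones 1 and 5. Rpl27a, Rpl5 and Rpl28 were added after their spread was seen, so their libraries are a description. The count of 15 therefore cannot be set against chance. Apart from these 3 members, only Rpl39 had such libraries.

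The difference of IP against input between uninjured cortex and uninjured white matter was past the threshold for 2 genes, as tested by an interaction term: Rpl29 at 2.48 and Rps15 at 2.33 on the log2 scale, both higher in cortex.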

How the results depend on the processing

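The count of called ribosomal protein genes depended on the processing in several comparisons. For IP against input in uninjured white matter it was 5 with DESeq2, 2 with total-count scaling and 1 with pseudogene counts added to the parent gene, in place of 0. For white matter stroke it was 1 with DESeq2. For white matter zones 2, 3 and 5 it was 1 with DESeq2, 2 without the filter on low counts and 1 without that filter, and for zone 1 against zone 5 it was 1 with DESeq2. For cortex zone 1 against zone 5 it was 4 with DESeq2, 4 with pseudogene counts added and 0 without the shallow library, in place of 1. For uninjured IP between regions it was 5 with RLE size factors, 3 without the filter and 3 with total-count scaling, in place of 12. For the difference of IP against input between regions it was 1 with RLE size factors in place of 2, and for the difference of the zone 1 change 1 with DESeq2. The cause was not tested in any of these, beyond what each alternative changes.

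Like-numbered libraries showed little correlation: that of their deviations ran from -0.18 to 0.16, with at most 1 pair over 0.1 in a comparison. Such values cannot tell whether libraries shared an animal or a lysate, so pairing stays unknown. With the replicate number as a block the count was 9 (4 higher, 5 lower) in uninjured cortex, 3 for uninjured IP between regions and 1 for the difference between regions, where Rps15 remained. Under the block the fold changes of Rpl22 in uninjured cortex (0.15), Rpl22l1 in white matter stroke (0.042) and Rpl22l1 in the difference between regions (0.13) changed sign.

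When each library was left out in turn, the count ran from 7 to 17 in uninjured cortex, 3 to 16 in cortex stroke, 3 to 14 for uninjured IP between regions and 1 to 2 for the difference between regions. It ran from 0 to 1 in cortex zone 1 against uninjured IP (1 without zone 1 replicate 4), in cortex zone 1 against zone 5, and in white matter zone 1 against zone 5 (1 without zone 1 replicate 3). It was 0 in all such fits of the other comparisons.

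Other fold changes that changed sign were all close to 0 or imprecise. In uninjured cortex Rpl22 was 0.068 without the filter, 0.27 with total-count scaling and 0.012 with pseudogene counts added. In cortex stroke Rpl4 was 0.14 without the filter and 0.19 with total-count scaling, and Rpl22 was -0.030 with pseudogene counts added. In uninjured white matter Rpsa was -0.35 with total-count scaling. In white matter stroke Rpl22l1 was 0.039 with RLE size factors and 0.041 with DESeq2. Without shallow libraries Rpl22l1 was 0.10 in cortex zone 1 and 0.12 against zone 5, and in white matter zone 1 Rpl4 was -0.034 and Rpl22 -0.58. With total-count scaling Rpl4 was 0.15 for uninjured IP between regions. In the difference between regions Rpl22l1 was 0.10 without the filter and 0.41 with total-count scaling. Leaving out single libraries turned the sign of Rpl22 in uninjured cortex (-0.28 to 0.46), cortex stroke (-0.14 to 0.40), cortex zone 1 (-0.14 to 0.38) and white matter zone 1 (-0.18 to 1.5). It did so for Rpl4 in cortex stroke (-0.056 to 0.089) and uninjured white matter (-0.36 to 0.033), and for Rpsa in uninjured white matter (-0.11 to 0.25). It did so for Rpl22l1 in white matter stroke (-0.40 to 0.70), cortex zone 1 (-0.41 to 0.11), cortex zone 1 against zone 5 (-0.39 to 0.14), uninjured IP between regions (-0.12 to 0.59) and the difference between regions (-0.59 to 0.38). None of these passed the threshold in any fit.

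In the sums, IP was 0.606 times input in uninjured white matter and 0.569 times in white matter stroke without mitochondrial mRNA in the total, and 0.522 and 0.544 times with pseudogene counts added. Depth limits white matter most: ribosomal protein genes held as few as 977 counts in a library, and 5 libraries were shallow.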

Other observations

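Respiratory chain and ribosomal protein mRNAs, both short and abundant, can be set side by side in IP. In uninjured white matter the 50 nuclear respiratory genes summed to 2236 to 2565 CPM in input and 866 to 1232 CPM in IP, without overlap. The 19 further mRNAs with a terminal oligopyrimidine tract, which include elongation factors, summed to 2648 to 3356 CPM in input and 1811 to 3306 CPM in IP. In uninjured cortex IP against uninjured white matter IP 5 of 46 respiratory genes were higher and 0 lower, while 6 of 18 further terminal oligopyrimidine mRNAs were lower and 0 higher, beside 12% of all genes higher and 15.5% lower. With total-count scaling 2038 genes were higher and 1073 lower in place of 1413 and 1833, and these lists were not counted with it. Of the further terminal oligopyrimidine mRNAs the nucleolar protein gene Npm1 was lower at -1.75 and the elongation factor gene Eef1a1 at -1.29 (log2).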
